A study of Mus musculus with 12 samples.

Results

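Interleukins are secreted signalling proteins of the immune system, and each acts through a receptor built from chains that are often shared between several ligands. The interleukin genes described here are the rows of the count table whose symbol starts with Il followed by a digit. Of 25124 gene symbols 84 matched, and the 67 with 20 or more counts summed over the 12 libraries are the members. They comprise 23 ligand genes, 37 receptor chain genes, 4 genes of antagonists or decoys (Il1rn, Il18bp, Il1r2 and Il13ra2) and 3 genes that encode neither a cytokine nor a receptor chain (Il4i1, Il4i1b and Il1bos). Of the 17 below the minimum, 7 had no count in any library (Il17a, Il9, Il20, Il31, Il1f6, Il1f8 and Il1f10). Just inside the minimum lay Il6 with 20 and Il11ra2 with 22 counts, and just outside it Il22 with 19 and Il23r with 17 counts.

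RNA sequencing was done on mouse brain taken 28 days after MCAo (middle cerebral artery occlusion), which causes an ischemic stroke. The question was how the stroke response differs when dickkopf-1 (DKK1), a secreted inhibitor of Wnt signals, is switched on. The DKK1 mice carried Gt(ROSA)26Sortm1.1(rtTA,EGFP)Nagy, Hprttm1(tetO-Dkk1)Spdl and the reporter Tg(TCF/Lef1-lacZ)34Efu/J, and the WT mice were C57BL6/J; the labels give no ages. Both genotypes received doxycycline (200 mg/kg), with induction 3 days after MCAo, so no group was free of doxycycline and none carried the alleles without it. Tissue came from the lesioned (ipsilateral) and intact (contralateral) sides, in DKK1 ipsilateral, WT ipsilateral, DKK1 contralateral and WT contralateral groups of 3 libraries. The activator sits at ROSA26, a broadly active locus, so induction was not aimed at 1 cell type, and the alleles and the background strain cannot be told apart from DKK1 itself. Whether each library is a separate animal is not in the labels. The p-values thus reflect the spread among libraries, 3 a group, which may be partly technical. That spread was estimated over all 4 groups together and moderated across genes, so a library that stands apart also enters comparisons of other groups.

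Interleukin receptors of the type I and type II cytokine families signal through JAK kinases and STAT factors, whereas receptors of the IL-1 and IL-17 families recruit adaptors that lead to NF-kB. In the brain, microglia, astrocytes and neurons express some of these genes at rest, for instance Il34 in neurons and Il33 in glia, and immune cells that enter after injury bring others. The common gamma chain Il2rg serves IL-2, IL-4, IL-7, IL-9, IL-15 and IL-21, and gp130, encoded by Il6st, serves the IL-6 family.

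Libraries held 21209920 to 26911840 counts, of which 10074 to 29152 fell on the members, and 60 to 67 members were detected per library. Dkk1 had 32, 7 and 44 counts in DKK1 ipsilateral libraries and 0 in each WT ipsilateral library. The DKK1 contralateral libraries held 13, 5 and 4 Dkk1 counts, and the WT contralateral libraries 0. The library WT ipsilateral 1 stood apart from its group: on the first principal component of all genes it lay at 70.9, among DKK1 ipsilateral libraries at 62.8 to 83.8 and away from the other WT ipsilateral libraries at 29.2 and 37.1. WT contralateral 1 lay at -41.2, against -72.6 and -63.3 for the other WT contralateral libraries. Among the 54 members that passed the expression filter, WT ipsilateral 1 was above both other WT ipsilateral libraries for 40 and at or above the lowest DKK1 ipsilateral library for 42. Its column in the count table is also the only one of the 12 whose heading lacks the ending flip, which the other 11 carry and whose meaning is not given in the sources used here. In the deposited TPM table all 12 headings carry it. The ratio of TPM to count in WT ipsilateral 1, as in every other library, lay within 0.01 on the log2 scale of the median library for all 9143 transcripts with 50 or more counts in each library. Calls that end without it are named below. Where a call holds but its value moves by over 1.5 times, the value without it is given.

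Markers of brain cells and of immune cells moved with the lesion. The summed level of 4 neuronal markers was 1790 to 2030 CPM (counts scaled to library size) in DKK1 ipsilateral and 1650 to 2080 CPM in WT ipsilateral libraries, against 2420 to 2660 CPM in DKK1 contralateral and 2410 to 2550 CPM in WT contralateral libraries. The 5 microglial markers summed to 751 to 807 CPM in DKK1 ipsilateral and 506 to 782 CPM in WT ipsilateral libraries, against 214 to 272 CPM in DKK1 contralateral and 224 to 328 CPM in WT contralateral libraries. The 4 B cell markers summed to 49.2 to 87.7 CPM in DKK1 ipsilateral and 21 to 29.2 CPM in WT ipsilateral libraries, against 0.305 to 1.08 CPM in DKK1 contralateral and 0.599 to 1.31 CPM in WT contralateral libraries. Of 6 macrophage and monocyte markers 4 rose with the lesion in each genotype, with sums of 61.1 to 69.8 CPM in DKK1 ipsilateral and 27.7 to 68.7 CPM in WT ipsilateral libraries, against 8.59 to 9.92 CPM in DKK1 contralateral and 9.41 to 12 CPM in WT contralateral libraries. The 8 T and NK cell markers had 6 that rose and 1 that fell, Cd4, which made up most of their sum in intact libraries (sums of 41.7 to 49.5, 19.0 to 31.2, 36.7 to 43.1 and 32.4 to 51.2 CPM in the same order of groups). All 4 fibroblast markers rose in each genotype, with sums of 510, 702 and 656 CPM in DKK1 ipsilateral and 681, 285 and 269 CPM in WT ipsilateral libraries, where WT ipsilateral 1 is the first, against 38.3 to 55.8 CPM in DKK1 contralateral and 43.3 to 94 CPM in WT contralateral libraries. Of 4 endothelial markers 3 rose in DKK1 and 2 in WT mice, and all 4 oligodendrocyte markers rose in each. Of 4 astrocyte markers 2 rose in each and 1 fell in DKK1 mice, and the 4 choroid plexus markers rose in WT mice and none passed in DKK1 mice. Both tested neutrophil markers rose in each genotype, and of 4 tested mast cell markers 3 rose in DKK1 and 1 in WT mice. Among defining markers, Ncr1 and Tpsb2 were at 0 in the DKK1 contralateral group, Fcer1a in both contralateral groups, and Ly6g in every group but DKK1 ipsilateral. The part of these cells in the changes below was not tested, and in bulk tissue fewer cells of a type and less RNA per cell cannot be told apart.

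The 250 bases before the start of Il1rn, Il9r, Il7r and Il18r1 are shown (RefSeq, GRCm38.p6, the same build as mm10). These members had the 4 largest fitted lesion differences by the mean over both genotypes. The stretches are chr11:32200280-32200529 on the minus strand for Il9r, chr2:24345121-24345370 on the plus strand for Il1rn, chr15:9529877-9530126 on the minus strand for Il7r and chr1:40465756-40466005 on the plus strand for Il18r1. Capitals mark matches on either strand to the letters of 3 factor motifs.
Il9r: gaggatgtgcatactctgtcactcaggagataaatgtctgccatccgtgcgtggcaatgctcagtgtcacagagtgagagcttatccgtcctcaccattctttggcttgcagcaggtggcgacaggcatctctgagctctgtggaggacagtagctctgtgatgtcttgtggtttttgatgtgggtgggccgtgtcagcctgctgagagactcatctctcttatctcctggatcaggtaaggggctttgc
Il1rn: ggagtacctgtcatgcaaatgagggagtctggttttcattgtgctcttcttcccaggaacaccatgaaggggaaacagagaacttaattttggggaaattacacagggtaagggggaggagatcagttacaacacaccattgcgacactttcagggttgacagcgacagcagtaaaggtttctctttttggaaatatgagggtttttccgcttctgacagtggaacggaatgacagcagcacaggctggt
Il7r: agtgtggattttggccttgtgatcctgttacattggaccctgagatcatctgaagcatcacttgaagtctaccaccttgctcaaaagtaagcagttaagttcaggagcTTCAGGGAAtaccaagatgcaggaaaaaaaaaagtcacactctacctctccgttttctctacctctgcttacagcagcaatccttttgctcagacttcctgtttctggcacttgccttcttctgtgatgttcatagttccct
Il18r1: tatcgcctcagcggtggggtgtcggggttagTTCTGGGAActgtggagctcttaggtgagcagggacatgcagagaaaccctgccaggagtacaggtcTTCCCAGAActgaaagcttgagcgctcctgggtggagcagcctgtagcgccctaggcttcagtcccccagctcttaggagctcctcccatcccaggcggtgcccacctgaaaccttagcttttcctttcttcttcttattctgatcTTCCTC

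The motifs searched were TTCNNNGAA (STAT), GAGGAA (PU.1 core) and TGANTCA (AP-1), and no matches overlapped in these 4 stretches. Il7r held 1 STAT match, 142 to 134 bases before its start. Il18r1 held 2 STAT matches and 1 match to the PU.1 core. Il1rn and Il9r held none of the 3 motifs. Il1rn and Il18r1 each had 3 promoters listed, and only that at the start of the counted transcript is shown. Over 32851 promoters of the same length, 7.02% held the STAT letters, 23.3% the PU.1 core and 6.75% the AP-1 letters. For 54 members that had a promoter in the table, 68 promoters held them in 7, 18 and 11 cases, in the same order. A match describes letters and does not show binding.

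Most tested interleukin genes were higher in the lesioned than in the intact hemisphere. Most of those that rose were receptor chains, as were 36 of the 54 tested members. In DKK1 mice 41 of the 54 tested members rose and 4 fell (edgeR's quasi-likelihood test, Benjamini-Hochberg adjusted p under 0.05), while 27.5% of the 17612 genes tested were called higher and 22.6% lower. In WT mice 35 rose and 6 fell, where 21.2% of all genes were called higher and 15.9% lower. The median log2 fold change of the tested members was 2.09 in DKK1 and 1.29 in WT mice, with 0.01 over all genes in both. A member that is high only in the lesion passes the expression filter through that group: among the 39 members that reach the filter in intact libraries, 28 rose and 4 fell in DKK1 mice, and 25 rose and 6 fell in WT mice. Of the 67 members, 13 were too low to be tested, most of them ligands: 12 of 23 ligands were tested, against 36 of 37 receptor chains. The 2 lesion comparisons share no library; 34 members rose in both, and 4 fell in both (Il1rapl1, Il1rapl2, Il20ra and Il17d). By role, 30 of 36 tested receptor chains rose and 3 fell in DKK1 mice, with 27 and 3 in WT mice, whereas of 12 tested ligands 6 rose and 1 fell in DKK1 mice, with 4 and 3 in WT mice. Without WT ipsilateral 1 the WT counts were 27 higher and 3 lower, and without the WT libraries numbered 1 of both sides 29 higher and 5 lower. Calls over all genes also became fewer, with 2780 higher and 1677 lower of 17791 genes in the first of these fits. In the second they were 2805 and 1602 of 17718 genes.

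**Figure D1:**
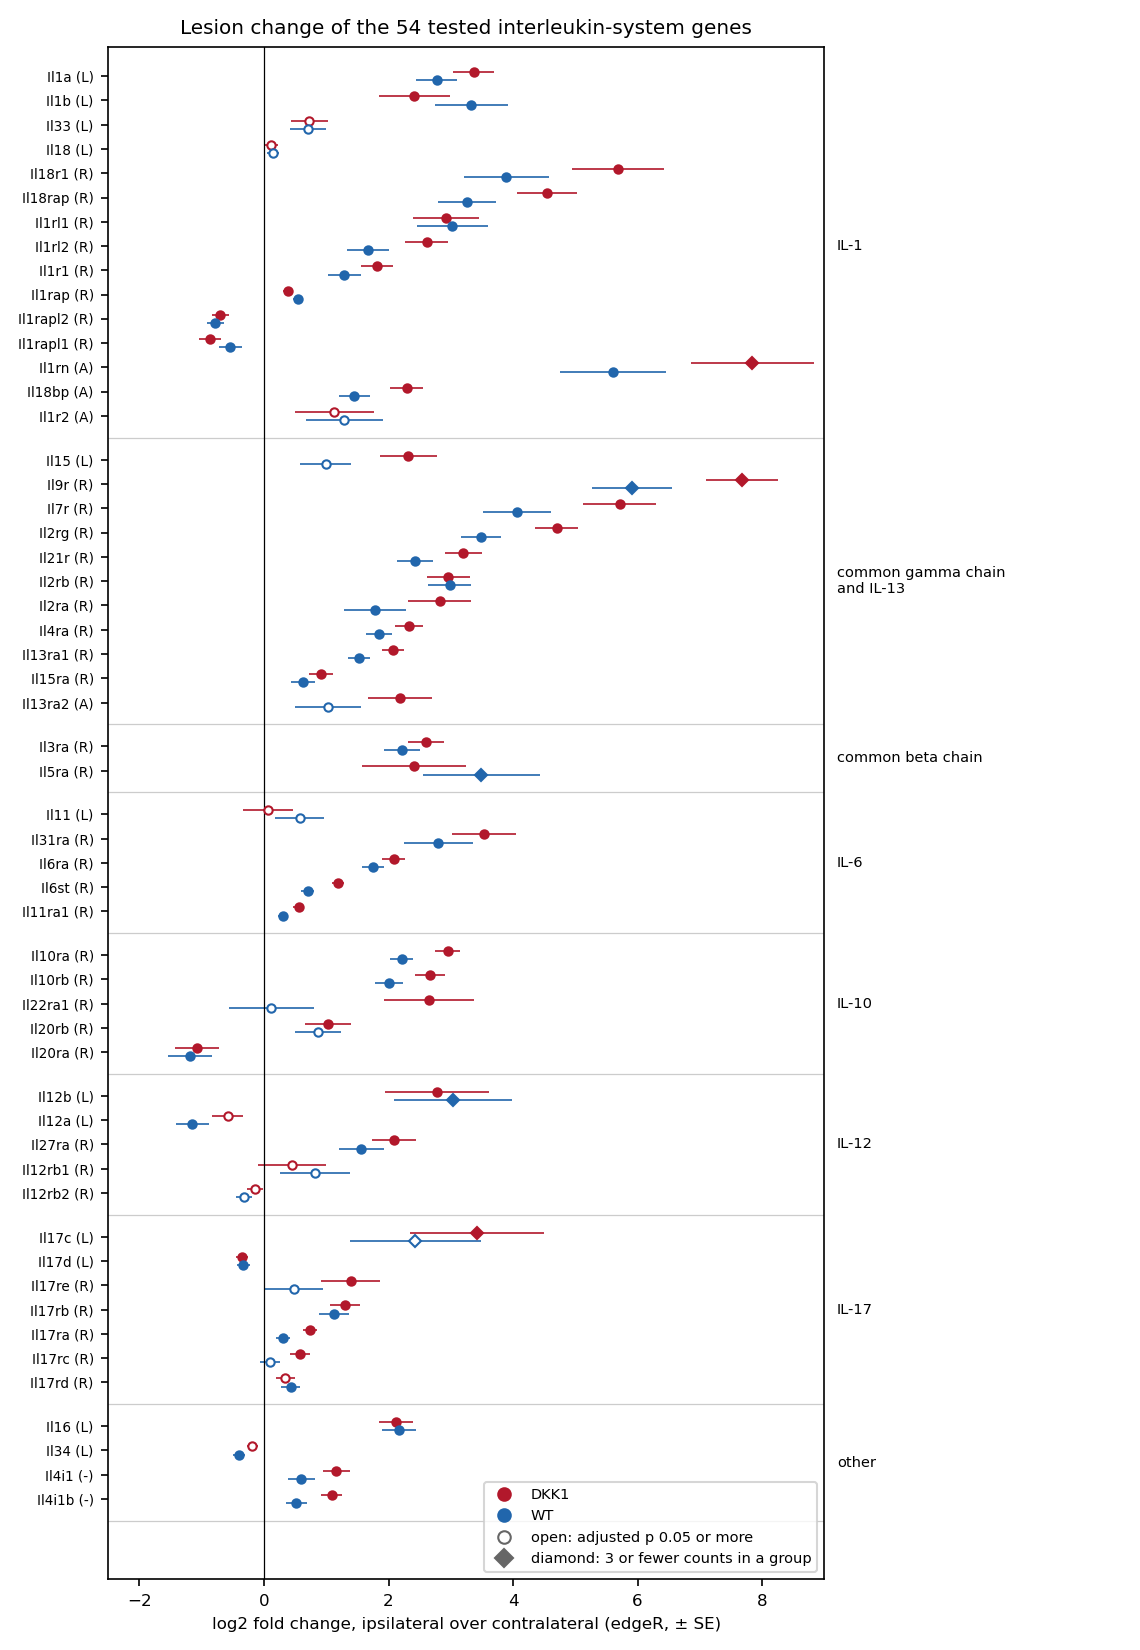
Fitted log2 fold change of the lesioned (ipsilateral) over the intact (contralateral) hemisphere for the 54 tested interleukin genes, by family, with 1 standard error each way, in DKK1 mice (red) and WT mice (blue). L, R and A after a symbol stand for ligand, receptor chain and antagonist or decoy; 41 members in DKK1 mice and 35 in WT mice passed to the right of 0, and 4 and 6 to the left.

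Among IL-1 family ligands, Il1a and Il1b, which encode the inflammatory cytokines IL-1 alpha and IL-1 beta, rose in both genotypes. Il1a had 8.18, 9.9 and 10.2 CPM in DKK1 ipsilateral and 8.26, 5.67 and 5.06 CPM in WT ipsilateral libraries. Intact levels of Il1a were 1.27, 0.861 and 0.61 CPM in DKK1 contralateral and 1.39, 0.513 and 0.844 CPM in WT contralateral libraries. Every lesioned library was above every intact one, and Il1a rose by 3.37 ± 0.33 on the log2 scale in DKK1 mice (adjusted p = 1.2e-05) and by 2.77 ± 0.33 in WT mice (adjusted p = 0.000116). Il1b had 2.9, 1.9 and 3.09 CPM in DKK1 ipsilateral and 5.16, 2.5 and 2.25 CPM in WT ipsilateral libraries. Intact levels of Il1b were 0.098, 0.984 and 0.349 CPM in DKK1 contralateral and 0.413, 0.171 and 0.38 CPM in WT contralateral libraries. The groups did not overlap, with WT ipsilateral 1 the highest library of all, and Il1b rose by 2.41 ± 0.57 in DKK1 mice (adjusted p = 0.00408) and by 3.33 ± 0.59 in WT mice (adjusted p = 0.00143). An RNA on the other strand, Il1bos, overlaps Il1b, and the use of strand in counting is not given in the sources used here.

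Il33 and Il18, whose products are released or activated in injured tissue, were the most abundant IL-1 family ligands in both hemispheres. Il33 had 105, 70.9 and 77.1 CPM in DKK1 ipsilateral and 137, 75.8 and 69.3 CPM in WT ipsilateral libraries. Intact levels of Il33 were 65.7, 39.6 and 48.3 CPM in DKK1 contralateral and 77.3, 47.0 and 49.5 CPM in WT contralateral libraries. The libraries numbered 1 were the highest of every group, and the lesion differences of 0.73 ± 0.29 in DKK1 mice (adjusted p = 0.0605) and 0.70 ± 0.29 in WT mice (adjusted p = 0.0828) did not pass. With same-numbered libraries of a genotype as a block, Il33 passed at 0.73 ± 0.07 in DKK1 mice (adjusted p = 5.55e-06) and at 0.67 ± 0.06 in WT mice (adjusted p = 1.73e-05). Il18 had 15.2, 17.2 and 16.2 CPM in DKK1 ipsilateral and 16.1, 16 and 17.4 CPM in WT ipsilateral libraries. Intact levels of Il18 were 14.2, 17.1 and 13.4 CPM in DKK1 contralateral and 14.6, 15.0 and 15.5 CPM in WT contralateral libraries. The ranges of Il18 were close, and its differences of 0.12 ± 0.10 in DKK1 mice (adjusted p = 0.346) and 0.14 ± 0.10 in WT mice (adjusted p = 0.294) did not pass.

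The antagonist Il1rn, which occupies the IL-1 receptor without signalling, was close to absent from intact tissue. It had 5.87, 10.6 and 7.27 CPM in DKK1 ipsilateral and 9.46, 2.66 and 2.28 CPM in WT ipsilateral libraries. Intact levels of Il1rn were 0, 0.082 and 0 CPM in DKK1 contralateral and 0.225, 0.0428 and 0 CPM in WT contralateral libraries. Lesioned and intact libraries did not overlap. With 603 counts over DKK1 ipsilateral and 2 over DKK1 contralateral libraries the ratio of levels was 267 (exact 95% interval 73.5 to 2210, which covers counting error only), with an adjusted p of 7.75e-05, and in WT mice Il1rn rose by 5.60 ± 0.85 (adjusted p = 0.000564). Without WT ipsilateral 1 that rise was 4.64 ± 0.63 (adjusted p = 0.000377). Il18bp, which binds and neutralises IL-18, lay at 20.8 to 33.2 CPM in DKK1 ipsilateral and 17.5 to 34.5 CPM in WT ipsilateral libraries. Intact levels of Il18bp were 4.85 to 6.52 CPM in DKK1 contralateral and 7.8 to 9.92 CPM in WT contralateral libraries. It rose by 2.29 ± 0.26 in DKK1 mice (adjusted p = 3.68e-05) and by 1.45 ± 0.25 in WT mice (adjusted p = 0.0013). Of the decoys, Il13ra2 rose in DKK1 mice, and Il1r2 passed in neither genotype.

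The receptor chains of IL-18 and IL-33 rose in both genotypes. Il18r1, the ligand-binding chain for IL-18, had 2.39, 3.71 and 3.73 CPM in DKK1 ipsilateral and 2.8, 1.15 and 1.03 CPM in WT ipsilateral libraries. Intact levels of Il18r1 were 0.049, 0.123 and 0 CPM in DKK1 contralateral and 0.188, 0 and 0.127 CPM in WT contralateral libraries. The sides did not overlap, and Il18r1 rose by 5.68 ± 0.74 in DKK1 mice (adjusted p = 8.1e-05) and by 3.89 ± 0.68 in WT mice (adjusted p = 0.00132; 3.27 ± 0.63 without WT ipsilateral 1). Its partner chain Il18rap had 3.29, 4.25 and 3.13 CPM in DKK1 ipsilateral and 3.22, 1.55 and 1.18 CPM in WT ipsilateral libraries. Intact levels of Il18rap were 0.098, 0.205 and 0.131 CPM in DKK1 contralateral and 0.3, 0.171 and 0.127 CPM in WT contralateral libraries. All lesioned libraries were above the intact ones, and Il18rap rose by 4.55 ± 0.48 in DKK1 mice (adjusted p = 1.81e-05) and by 3.26 ± 0.46 in WT mice (adjusted p = 0.000321). Il1rl1, the ST2 receptor for IL-33, had 1.57, 2.89 and 2.01 CPM in DKK1 ipsilateral and 2.58, 0.912 and 0.875 CPM in WT ipsilateral libraries. Intact levels of Il1rl1 were 0.147, 0.369 and 0.305 CPM in DKK1 contralateral and 0.263, 0.0855 and 0.169 CPM in WT contralateral libraries. WT ipsilateral 1 stood with the DKK1 libraries, the sides did not overlap, and Il1rl1 rose by 2.93 ± 0.53 in DKK1 mice (adjusted p = 0.00079) and by 3.02 ± 0.57 in WT mice (adjusted p = 0.00204; 2.32 ± 0.48 without WT ipsilateral 1).

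Il1r1, the signalling receptor for IL-1, rose by 1.81 ± 0.26 in DKK1 mice (adjusted p = 0.000193) and by 1.29 ± 0.26 in WT mice (adjusted p = 0.003). It lay at 22.0 to 33.7 CPM in DKK1 ipsilateral and 19.7 to 24.7 CPM in WT ipsilateral libraries. Intact levels of Il1r1 were 5.14 to 10.7 CPM in DKK1 contralateral and 6.79 to 10.5 CPM in WT contralateral libraries. The accessory chain Il1rap, shared by receptors of IL-1, IL-33 and IL-36, moved less. Il1rap had 35.7, 31.6 and 33.4 CPM in DKK1 ipsilateral and 42.7, 39.7 and 42.7 CPM in WT ipsilateral libraries. Intact levels of Il1rap were 25.5, 26.5 and 25.8 CPM in DKK1 contralateral and 26.4, 29.3 and 30.4 CPM in WT contralateral libraries. It rose by 0.38 ± 0.07 in DKK1 mice (adjusted p = 0.000906) and by 0.54 ± 0.07 in WT mice (adjusted p = 0.000175). Il1rapl1 and Il1rapl2, relatives of this chain that act at neuronal synapses, fell. Il1rapl1 had 19.0, 17.3 and 16.5 CPM in DKK1 ipsilateral and 16, 30.2 and 22.6 CPM in WT ipsilateral libraries. Intact levels of Il1rapl1 were 31.0, 33.4 and 31.7 CPM in DKK1 contralateral and 29.1, 35.1 and 36.0 CPM in WT contralateral libraries. Only the WT sides overlapped, and the difference was -0.87 ± 0.18 in DKK1 mice (adjusted p = 0.00192) and -0.54 ± 0.18 in WT mice (adjusted p = 0.0312). The WT call of Il1rapl1 ended without WT ipsilateral 1 (-0.34 ± 0.13, adjusted p = 0.0707). Il1rapl2 lay at 3.22 to 4.42 CPM in DKK1 ipsilateral and 4.41 to 4.83 CPM in WT ipsilateral libraries. Intact levels of Il1rapl2 were 6.02 to 6.86 CPM in DKK1 contralateral and 7.39 to 8.52 CPM in WT contralateral libraries. The difference was -0.70 ± 0.14 in DKK1 mice (adjusted p = 0.0018) and -0.78 ± 0.14 in WT mice (adjusted p = 0.00157).

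All 11 tested members of the common gamma chain and IL-13 family rose with the lesion in DKK1 mice and 9 of them in WT mice. Il9r, the alpha chain for IL-9, had the lowest intact level among the 54. It had 2.82, 4.5 and 4.81 CPM in DKK1 ipsilateral and 0.972, 1.23 and 1.14 CPM in WT ipsilateral libraries. Intact levels of Il9r were 0, 0.041 and 0 CPM in DKK1 contralateral and 0.0375, 0 and 0 CPM in WT contralateral libraries. Each contralateral group held 1 Il9r count, so the lesion change is given as a ratio of levels, 274 in DKK1 mice (exact 95% interval 48.8 to 10900, adjusted p = 2.25e-06) and 82 in WT mice (14.3 to 3270, adjusted p = 6.66e-05). Il7r, the alpha chain for IL-7 and part of the receptor for TSLP, had 12.8, 29.0 and 18.9 CPM in DKK1 ipsilateral and 16.1, 5.55 and 6.09 CPM in WT ipsilateral libraries. Intact levels of Il7r were 0.245, 0.492 and 0.392 CPM in DKK1 contralateral and 0.9, 0.299 and 0.422 CPM in WT contralateral libraries. The sides did not overlap, and Il7r rose by 5.71 ± 0.59 in DKK1 mice (adjusted p = 1.82e-05) and by 4.06 ± 0.55 in WT mice (adjusted p = 0.000293; 3.39 ± 0.43 without WT ipsilateral 1).

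The shared chain Il2rg had 18.8, 20 and 22.9 CPM in DKK1 ipsilateral and 22.1, 10.5 and 11.8 CPM in WT ipsilateral libraries. Intact levels of Il2rg were 0.784, 0.697 and 0.872 CPM in DKK1 contralateral and 1.88, 0.898 and 1.14 CPM in WT contralateral libraries. Both libraries numbered 1 of WT mice were the highest of their groups, and Il2rg rose by 4.70 ± 0.35 in DKK1 mice (adjusted p = 2.25e-06) and by 3.49 ± 0.32 in WT mice (adjusted p = 3.04e-05). Il21r, the chain that binds IL-21, had 15.0, 14.6 and 19.2 CPM in DKK1 ipsilateral and 18.2, 9.15 and 11.6 CPM in WT ipsilateral libraries. Intact levels of Il21r were 2.06, 1.68 and 1.57 CPM in DKK1 contralateral and 3.41, 1.75 and 2.03 CPM in WT contralateral libraries. Again the sides did not overlap, and Il21r rose by 3.20 ± 0.30 in DKK1 mice (adjusted p = 9.45e-06) and by 2.42 ± 0.29 in WT mice (adjusted p = 0.000124). Il15ra, which presents IL-15 to neighbouring cells, rose by 0.91 ± 0.19 in DKK1 mice (adjusted p = 0.00204) and by 0.63 ± 0.19 in WT mice (adjusted p = 0.0232), at 7.44 to 9.21 CPM in DKK1 ipsilateral and 5.71 to 7.51 CPM in WT ipsilateral libraries. The WT call of Il15ra ended without WT ipsilateral 1 (0.54 ± 0.21, adjusted p = 0.0827). Intact levels of Il15ra were 4.23 to 4.84 CPM in DKK1 contralateral and 3.16 to 5.55 CPM in WT contralateral libraries. Its ligand Il15 rose in DKK1 mice (2.32 ± 0.45, adjusted p = 0.0012) and not by the test in WT mice (0.99 ± 0.41, adjusted p = 0.0736, and 0.0309 with the block). Mean levels of Il15 were closer in the lesion, at 2.27 CPM in DKK1 ipsilateral and 1.93 CPM in WT ipsilateral libraries. In intact tissue they were 0.461 CPM in DKK1 contralateral and 0.964 CPM in WT contralateral libraries. Il2ra, Il2rb, Il4ra and Il13ra1 rose in both genotypes, by 1.53 to 2.98 on the log2 scale. The WT call of Il2ra ended without WT ipsilateral 1 (1.59 ± 0.56, adjusted p = 0.0578).

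**Figure D2:**
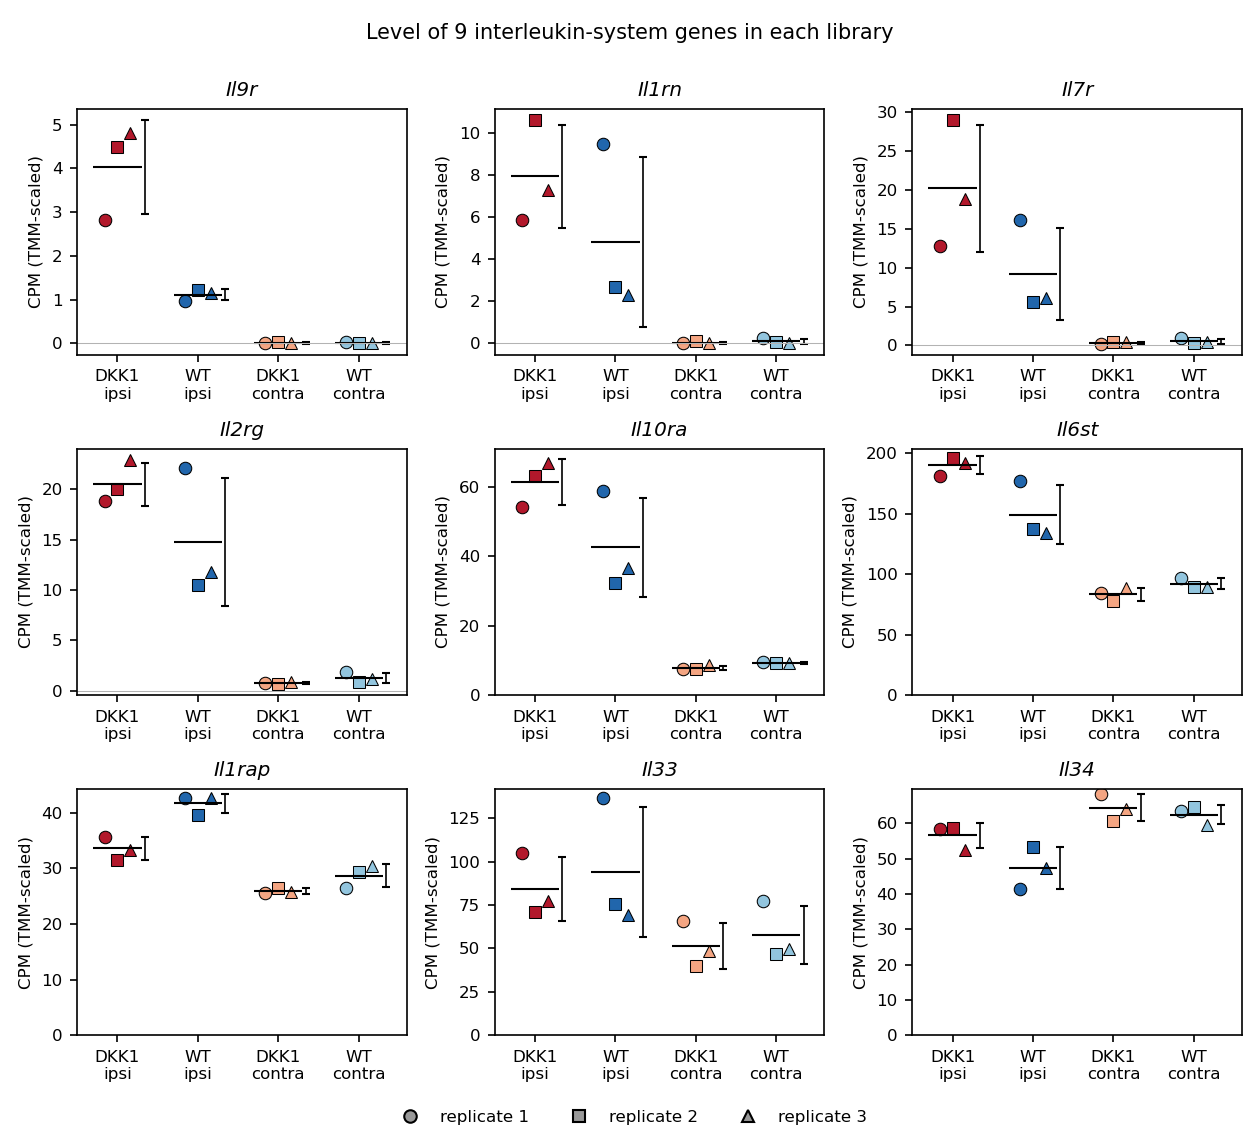
Level of 9 interleukin genes in each library (CPM after TMM scaling, linear axes), with the group mean as a line and the SD (n = 3) as a bar. Il9r, Il1rn, Il7r, Il2rg and Il10ra are low in all 6 intact libraries, and the circle of WT ipsilateral 1 lies within the range of the DKK1 ipsilateral libraries for Il1rn, Il7r, Il2rg and Il10ra.

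Of 5 tested members of the IL-6 family 4 rose with the lesion in each genotype, all of them receptor chains. Il6st, which encodes the shared signal transducer gp130, had 181, 196 and 192 CPM in DKK1 ipsilateral and 177, 137 and 134 CPM in WT ipsilateral libraries. Intact levels of Il6st were 83.9, 77.5 and 88.4 CPM in DKK1 contralateral and 97.1, 89.2 and 89.5 CPM in WT contralateral libraries. DKK1 ipsilateral libraries were above all others, and Il6st rose by 1.19 ± 0.10 in DKK1 mice (adjusted p = 3.59e-06) and by 0.70 ± 0.10 in WT mice (adjusted p = 0.000282). Il6ra, the IL-6 binding chain, lay at 22.7 to 38.2 CPM in DKK1 ipsilateral and 23.7 to 26.3 CPM in WT ipsilateral libraries. Intact levels of Il6ra were 6.12 to 8.2 CPM in DKK1 contralateral and 6.49 to 8.4 CPM in WT contralateral libraries. The gene rose by 2.08 ± 0.18 in DKK1 mice (adjusted p = 5.71e-06) and by 1.75 ± 0.18 in WT mice (adjusted p = 5.64e-05). Il31ra, a gp130-like chain for IL-31, had 2.19, 2.27 and 5.89 CPM in DKK1 ipsilateral and 1.38, 2.02 and 0.913 CPM in WT ipsilateral libraries. Intact levels of Il31ra were 0.294, 0.287 and 0.305 CPM in DKK1 contralateral and 0.263, 0.0855 and 0.253 CPM in WT contralateral libraries. DKK1 ipsilateral 3 was the highest Il31ra library, and the gene rose by 3.53 ± 0.51 in DKK1 mice (adjusted p = 0.00017) and by 2.8 ± 0.55 in WT mice (adjusted p = 0.00254).

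Il10ra, the IL-10 binding chain of microglia and leukocytes, had 54.3, 63.1 and 67.0 CPM in DKK1 ipsilateral and 59.0, 32.3 and 36.8 CPM in WT ipsilateral libraries. Intact levels of Il10ra were 7.64, 7.54 and 8.59 CPM in DKK1 contralateral and 9.42, 9.15 and 9.16 CPM in WT contralateral libraries. No lesioned library came near the intact ones, and Il10ra rose by 2.95 ± 0.20 in DKK1 mice (adjusted p = 2.02e-06) and by 2.21 ± 0.19 in WT mice (adjusted p = 2.76e-05). A microRNA, Mir7086, overlaps it on the same strand. Il10rb, shared by IL-10, IL-22 and type III interferons, lay at 44.0 to 60.9 CPM in DKK1 ipsilateral and 29.4 to 47.3 CPM in WT ipsilateral libraries. Intact levels of Il10rb were 7.26 to 10.1 CPM in DKK1 contralateral and 7.18 to 12.1 CPM in WT contralateral libraries. The gene rose by 2.67 ± 0.24 in DKK1 mice (adjusted p = 6.99e-06) and by 2.01 ± 0.23 in WT mice (adjusted p = 0.000116). Il20ra, a chain for IL-19, IL-20 and IL-24, went the other way. It had 1.29, 1.36 and 0.895 CPM in DKK1 ipsilateral and 0.561, 1.62 and 1.03 CPM in WT ipsilateral libraries. Intact levels of Il20ra were 2.45, 2.13 and 2.92 CPM in DKK1 contralateral and 1.69, 3.12 and 2.53 CPM in WT contralateral libraries. The difference was -1.08 ± 0.35 in DKK1 mice (adjusted p = 0.0235) and -1.19 ± 0.35 in WT mice (adjusted p = 0.0211), with no overlap of the sides. The WT call of Il20ra ended without WT ipsilateral 1 (-0.88 ± 0.33, adjusted p = 0.0697). Over the 12 libraries the genes whose log2 CPM was most like that of Il10ra were Arl11 (Pearson's r = 0.998), then Zc3h12a, Pros1, Ikbke and Ctsz (0.997 each), a description across libraries that differ mainly by hemisphere.

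In the IL-17 family Il17ra, the chain shared by most receptors of the family, lay at 50.2 to 55.2 CPM in DKK1 ipsilateral and 38.9 to 46.2 CPM in WT ipsilateral libraries. Intact levels of Il17ra were 27.6 to 37.1 CPM in DKK1 contralateral and 31.4 to 38.1 CPM in WT contralateral libraries. It rose by 0.74 ± 0.11 in DKK1 mice (adjusted p = 0.000201) and by 0.30 ± 0.11 in WT mice (adjusted p = 0.0485). The WT call of Il17ra ended without WT ipsilateral 1 (0.23 ± 0.12, adjusted p = 0.167). The ligand Il17d had 17.4, 15.5 and 17.2 CPM in DKK1 ipsilateral and 17.5, 19.8 and 18.5 CPM in WT ipsilateral libraries. Intact levels of Il17d were 21.2, 21.6 and 21 CPM in DKK1 contralateral and 19.8, 26.1 and 24.3 CPM in WT contralateral libraries. DKK1 sides did not overlap and WT sides met at 19.8 CPM, with differences of -0.35 ± 0.10 in DKK1 mice (adjusted p = 0.0125) and -0.33 ± 0.10 in WT mice (adjusted p = 0.0222). The WT call of Il17d ended without WT ipsilateral 1 (-0.29 ± 0.11, adjusted p = 0.0796). Il17c, a ligand made by epithelia, had 28 counts over DKK1 ipsilateral and 2 over DKK1 contralateral libraries, a ratio of 12.4 (exact 95% interval 3.12 to 107, adjusted p = 0.019), and in WT mice 19 and 3 counts, a ratio of 5.97 (1.76 to 31.5), which did not pass (adjusted p = 0.0881; adjusted p = 0.0302 with the block).

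Of the IL-12 family, Il12b encodes the p40 subunit of IL-12 and IL-23, and Il12a the p35 subunit of IL-12. Il12b had 0.587, 0.578 and 0.447 CPM in DKK1 ipsilateral and 0.748, 0.119 and 0.228 CPM in WT ipsilateral libraries. Intact levels of Il12b were 0.049, 0.123 and 0.0436 CPM in DKK1 contralateral and 0.113, 0 and 0 CPM in WT contralateral libraries. It rose by 2.78 ± 0.83 in DKK1 mice (adjusted p = 0.0152), and in WT mice 29 against 3 counts gave a ratio of 9.11 (exact 95% interval 2.82 to 46.7, adjusted p = 0.0265), which did not pass without WT ipsilateral 1 (adjusted p = 0.15). Il12a had 1.53, 1.82 and 1.79 CPM in DKK1 ipsilateral and 1.01, 1.59 and 1.03 CPM in WT ipsilateral libraries. Intact levels of Il12a were 2.99, 2.5 and 2.22 CPM in DKK1 contralateral and 3.11, 3.04 and 1.9 CPM in WT contralateral libraries. The sides did not overlap in either genotype, and the difference passed in WT mice (-1.15 ± 0.26, adjusted p = 0.00499) and not in DKK1 mice (-0.58 ± 0.25, adjusted p = 0.0718). Il5ra, the IL-5 binding chain, had 0.117, 0.495 and 0.857 CPM in DKK1 ipsilateral and 0.598, 0.396 and 0.533 CPM in WT ipsilateral libraries. Intact levels of Il5ra were 0.147, 0.082 and 0.0436 CPM in DKK1 contralateral and 0, 0 and 0.127 CPM in WT contralateral libraries. Il5ra overlapped between the DKK1 sides and rose there by 2.41 ± 0.84 (adjusted p = 0.0312), while 40 against 3 counts in WT mice gave a ratio of 12.6 (4 to 63.5, adjusted p = 0.0129).

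Il34 and Il16 belong to no other family here. Il34, a second ligand of the microglial receptor CSF1R, was the most abundant member per kb in intact tissue. It had 58.5, 58.8 and 52.4 CPM in DKK1 ipsilateral and 41.4, 53.2 and 47.5 CPM in WT ipsilateral libraries. Intact levels of Il34 were 68.4, 60.8 and 64.1 CPM in DKK1 contralateral and 63.5, 64.6 and 59.5 CPM in WT contralateral libraries. Every lesioned library was below every intact one, and Il34 fell in WT mice (-0.40 ± 0.09, adjusted p = 0.00409), whereas the difference of -0.19 ± 0.09 in DKK1 mice passed only with the block (adjusted p = 0.0882 without it and 0.0447 with it). Il16, a chemoattractant for cells with CD4, had 26.6, 35.3 and 41.7 CPM in DKK1 ipsilateral and 27.1, 21.9 and 25.5 CPM in WT ipsilateral libraries. Intact levels of Il16 were 5.0, 11.9 and 6.8 CPM in DKK1 contralateral and 6.27, 4.83 and 5.4 CPM in WT contralateral libraries. The sides were far apart, and Il16 rose by 2.12 ± 0.27 in DKK1 mice (adjusted p = 7.08e-05) and by 2.17 ± 0.27 in WT mice (adjusted p = 0.000176).

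The calls rested on few libraries for the weaker members. Leaving out each library in turn kept 38 of 45 calls in DKK1 mice and 30 of 41 in WT mice. In DKK1 mice the calls of Il20ra, Il20rb, Il12b, Il17c, Il17d, Il17re and Il5ra were lost in 1 or more such fits (adjusted p of 0.0514 to 0.156), 5 of them without DKK1 ipsilateral 3 or DKK1 contralateral 3, 4 without DKK1 ipsilateral 2 or DKK1 contralateral 2, and 2 without DKK1 contralateral 1. In WT mice those of Il1rapl1, Il20ra, Il12b, Il17d, Il17ra, Il17rd, Il11ra1, Il15ra, Il2ra, Il4i1 and Il4i1b were lost (adjusted p of 0.0513 to 0.235). That was all 11 without WT ipsilateral 1, 10 without WT contralateral 2, 9 without WT contralateral 3, 5 without WT ipsilateral 3, 2 without WT ipsilateral 2 and 1 without WT contralateral 1. With both WT libraries numbered 1 left out, Il1rapl1, Il20ra, Il12b, Il17d, Il15ra and Il2ra passed in WT mice. Il17ra, Il17rd, Il11ra1, Il4i1 and Il4i1b did not, and the WT calls of Il12a (adjusted p = 0.0505) and Il5ra (adjusted p = 0.0849) were also lost. The WT count of members that fell was 3 without WT ipsilateral 1, WT ipsilateral 3, WT contralateral 2 or WT contralateral 3. Some called rises kept their call and changed in size by over 1.5 times. Without WT ipsilateral 1 these were Il1rn, Il18r1, Il1rl1 and Il7r, as given above, and Il27ra, the IL-27 receptor chain, at 0.97 ± 0.24 against 1.56 with all libraries. Without WT contralateral 1, Il2ra rose by 2.60 ± 0.55 against 1.78 and Il7r by 4.66 ± 0.67 against 4.06. Without DKK1 contralateral 2, Il1b rose by 3.47 ± 0.60 in DKK1 mice, against 2.41 with all libraries. Without DKK1 contralateral 1, Il22ra1 rose by 3.40 ± 0.89 against 2.65, and without DKK1 ipsilateral 3, Il31ra by 2.90 ± 0.41 against 3.53. For Il1rn, Il9r, Il18r1, Il12b, Il5ra and Il17c, some fits without a contralateral library left 0 to 3 counts in that group, and their fitted sizes are not given. Of the tested members, 7 passed in DKK1 mice and not in WT mice and 3 in WT mice and not in DKK1 mice, and the difference between genotypes is given by the interaction below.

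Per kb of transcript, the receptor chain was above the ligand in most of the 24 pairs set side by side. In WT contralateral libraries the order of levels was Il34 (33.8 CPM per kb), Il33 (21.9), Il17d (19.2), Il6st (16.9), Il11ra1 (14.1) and Il18 (13.2), where Il34 was separated from Il33 and Il6st from Il11ra1, and the other neighbours overlapped. In DKK1 ipsilateral libraries Il6st (34.9 CPM per kb), Il33 (31.9), Il34 (30.6) and Il10rb (29.8) came first; the first 3 each overlapped with the next, and Il10rb was separated from Il11ra1 (19.4). Among 24 pairs of a ligand and a receptor chain, the chain was above the ligand in counts per kb for 21 pairs in the 6 lesioned libraries and 21 in the 6 intact ones. The exceptions in the lesion were Il33 over Il1rl1 (5240 against 52.8 counts per kb), Il18 over Il18r1 (2220 against 92.2) and Il5 over Il5ra (23.6 against 22.0). The pairs were a selected list, so these counts describe that list and not the interleukin genes as a whole. Ligands left out of it included Il34 and Il17d, both among the highest in intact tissue, and Il16 and Il12a. The list also held ligands below the minimum for members, namely Il2, Il3, Il9, Il10, Il17a, Il22 and Il31.

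Several receptors that rose had a ligand near or below detection. Il10 had 5 counts over the lesioned and 0 over the intact libraries, against 8074 and 1219 counts of Il10ra. Il6 had 18 counts in lesioned and 2 in intact libraries, against 4387 and 1056 counts of Il6ra. No count of Il9, Il31 or Il17a was seen in any library, which at 3 counts allows a level of up to 0.0101 CPM over all 12 libraries together, while their receptor chains held 397 (Il9r), 381 (Il31ra) and 7364 (Il17ra) counts in the lesioned libraries. The untested ligands Il1f9, Il27 and Il7 had 77, 55 and 67 counts in lesioned libraries and 3, 7 and 28 in intact libraries, and 45 of the Il1f9 counts came from WT ipsilateral 1. The other 10 untested members held 20 to 80 counts each.

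**Figure D3:**
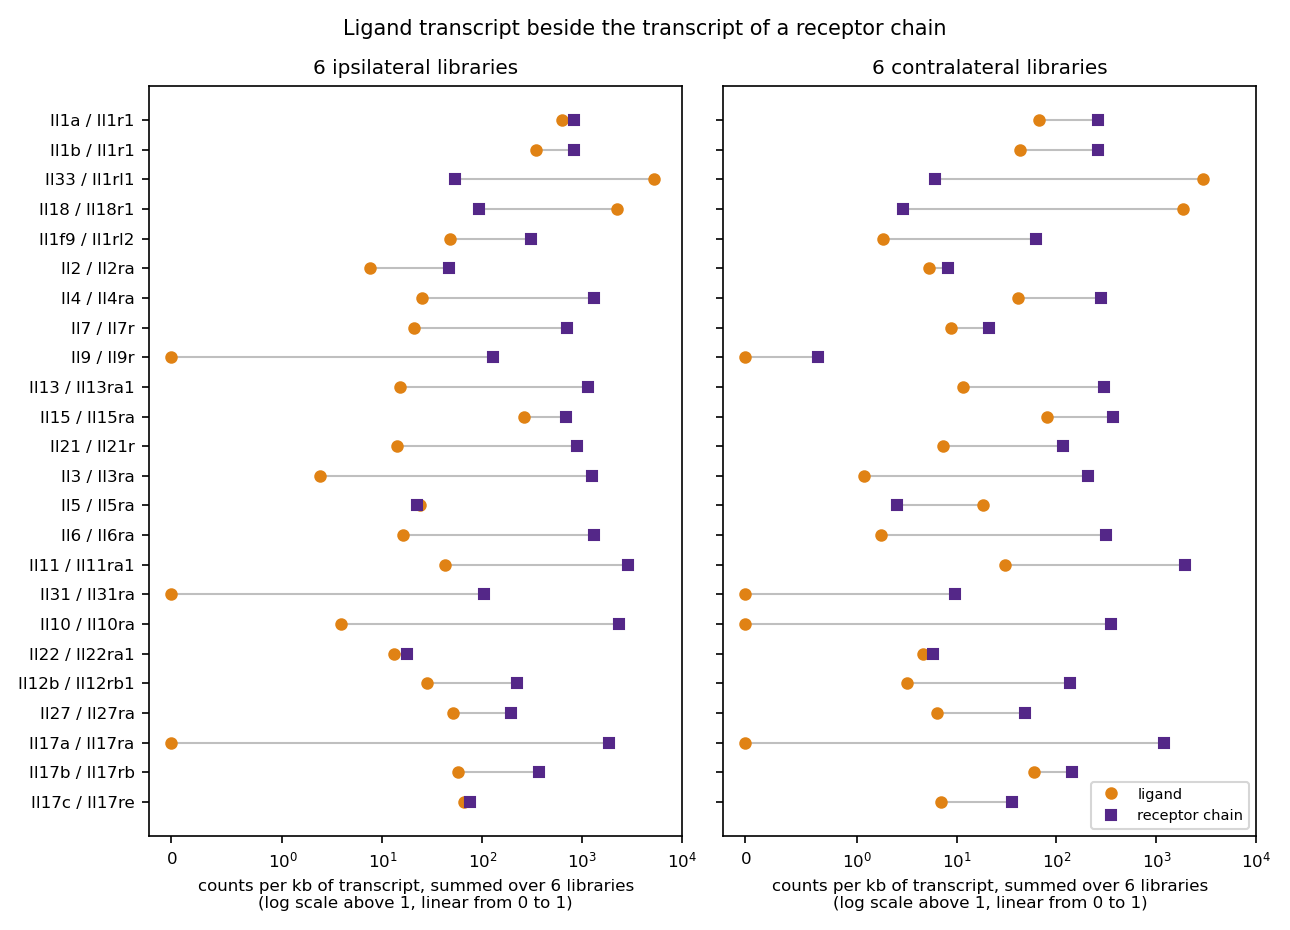
Counts per kb of transcript, summed over 6 libraries, of a ligand (orange circle) and of 1 of its receptor chains (purple square) for 24 pairs, in lesioned (left) and intact (right) libraries; the axis is logarithmic above 1. The square lies to the right of the circle for 21 pairs in each panel, and Il33 and Il18 are the pairs with the widest gap the other way.

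Other genes of the pathways moved in the same comparisons. Of 15 tested receptor partners and related cytokines not named Il, 12 rose and none fell in each genotype, led by Csf2rb, the beta chain shared by IL-3, IL-5 and GM-CSF receptors (4.96 ± 0.33 in DKK1 and 4.01 ± 0.31 in WT mice), and with Csf1r, the receptor of IL-34 (1.90 ± 0.15 and 1.41 ± 0.14 in the same order). Of 11 IL-1 and IL-17 receptor adaptors and regulators 9 rose in DKK1 and 7 in WT mice, among them the kinase Irak4 (2.56 ± 0.20 and 2.18 ± 0.20) and the inhibitory Irak3 (1.68 ± 0.17 and 1.42 ± 0.17). Of 11 JAK kinases and STAT factors 9 rose in DKK1 and 8 in WT mice, among them Stat3 (0.81 ± 0.06 and 0.65 ± 0.06), which carries gp130 and IL-10 signals. Of 7 feedback inhibitors 4 rose in DKK1 and 3 in WT mice, among them the phosphatase Ptpn6 (3.74 ± 0.31 and 3.01 ± 0.30) and Socs3 (1.96 ± 0.29 and 1.90 ± 0.30). None of these 4 lists had a gene that passed between genotypes on either side by the same test.

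Between genotypes in the lesioned hemisphere, Il9r was higher and Il1rap lower in DKK1 mice, and the other 52 tested members did not pass. Of all genes, 1.52% were called higher and 0.846% lower in this comparison. The median log2 fold change over the members was 0.40, against 0.02 over all genes, with 43 of 54 above 0. At an unadjusted p under 0.05 there were 18 members (20.9% of all genes). DKK1 and WT libraries did not overlap for 9 members, 6 higher and 3 lower, where 13.3% of all genes were higher and 7.26% lower without overlap. Il9r had 72, 109 and 129 counts in DKK1 ipsilateral libraries, against 26, 31 and 30 counts in WT ipsilateral libraries, a difference of 1.86 ± 0.31 (adjusted p = 0.0116), with all 3 DKK1 libraries above all 3 WT libraries. Il9r no longer passed without DKK1 ipsilateral 2 (adjusted p = 0.0671), DKK1 ipsilateral 3 (0.0737) or WT ipsilateral 3 (0.0717), and held without WT ipsilateral 1 (1.77 ± 0.36, adjusted p = 0.0102). Il1rap differed by -0.31 ± 0.07 (adjusted p = 0.0387), with mean levels of 33.6 ± 2.06 CPM in DKK1 ipsilateral and 41.7 ± 1.70 CPM in WT ipsilateral libraries (SD, n = 3 each). This lower level no longer passed without DKK1 ipsilateral 2 (adjusted p = 0.175), DKK1 ipsilateral 3 (0.14), WT ipsilateral 2 (0.0812) or WT ipsilateral 3 (0.175), and an RNA on the other strand, Gm20319, overlaps Il1rap. Within 5 Mb of Il9r 52 other genes were tested and within 5 Mb of Il1rap 57, and none of them passed between genotypes on either side.

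Some lymphocyte markers and an endothelial one moved with Il9r between genotypes. The B cell markers Ms4a1 (1.53 ± 0.27, adjusted p = 0.0167) and Pax5 (1.5 ± 0.32, adjusted p = 0.0354), 2 of 4 in that list, and the T cell marker Cd8b1 (1.87 ± 0.42, adjusted p = 0.0449), 1 of 7 tested, were higher in the DKK1 than in the WT lesion. So was the endothelial Pecam1 (0.51 ± 0.08, adjusted p = 0.00882), 1 of 4 in its list. None of the tested markers of microglia, macrophages, neutrophils, mast cells, fibroblasts, choroid plexus, astrocytes, oligodendrocytes or neurons passed. The summed B cell markers did not overlap between the genotypes (49.2 to 87.7 CPM in DKK1 ipsilateral and 21 to 29.2 CPM in WT ipsilateral libraries). The part of these cells in the Il9r difference was not tested.

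The count of members that differed between genotypes turned on WT ipsilateral 1. Without that library 17 members were higher and 2 lower in DKK1 lesions, where 10.1% of all genes were called higher and 4.2% lower, and the added members included Il7r (1.80 ± 0.35, adjusted p = 0.00891), Il1rn (1.68 ± 0.42, adjusted p = 0.0246), Il10ra (0.83 ± 0.10, adjusted p = 0.000733) and Il6st (0.49 ± 0.06, adjusted p = 0.00144). With all 12 libraries these 4 differed by 1.13, 0.72, 0.53 and 0.34 and did not pass. Of 41 members that rose in the DKK1 lesion, both other WT ipsilateral libraries lay below every DKK1 ipsilateral library for 35. All 3 WT libraries did so for 6, where 13.3% of all genes were higher without overlap. The 41 were picked through the same DKK1 ipsilateral libraries, and WT ipsilateral 1 was singled out after it was seen. No share of all genes was computed for the 35, so that count is a description and no support for a genotype difference. Without the WT libraries numbered 1 of both sides, a setting chosen after seeing the data, 22 were higher and 2 lower, where 12.8% and 5.54% of all genes were called in those directions.

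**Figure D4:**
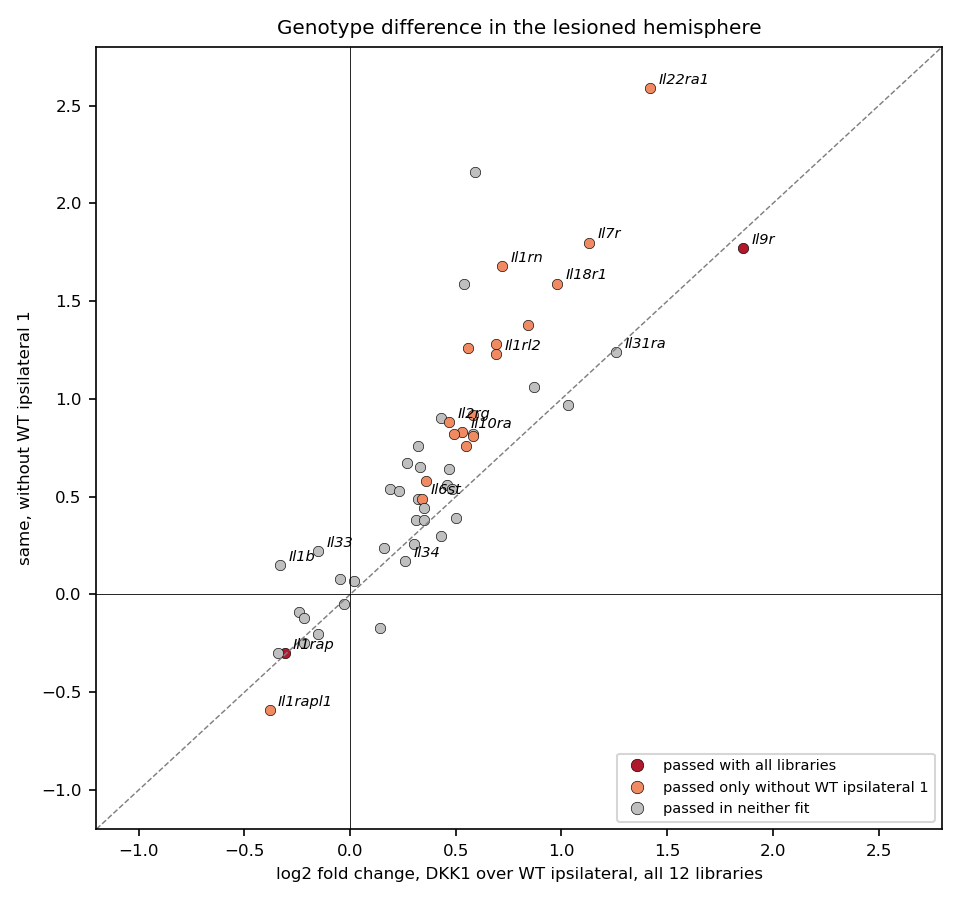
Log2 fold change of DKK1 over WT ipsilateral libraries for the 54 tested members, with all 12 libraries (horizontal) and without WT ipsilateral 1 (vertical); the dashed line marks equality. Il9r and Il1rap passed with all libraries and lie near the line, and most members above 0 lie above the line, among them Il7r (1.13 with and 1.80 without that library) and Il1rn (0.72 and 1.68).

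In the intact hemisphere no member passed between genotypes, where 0.88% of all genes were called. At an unadjusted p under 0.05 there were 2 of 54, Il18bp and Il15, both lower in DKK1 mice (6.08% of all genes), and DESeq2 and limma-voom also called 0. The median difference was -0.08.

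The lesion difference in DKK1 mice minus that in WT mice, the interaction, passed for no member in edgeR's test, with 0.00568% of all genes called. At an unadjusted p under 0.05 there were 7 members (9.59% of all genes), and DESeq2 and limma-voom called 0 and 0. The pair block rests on a pairing inferred from these same libraries. With it 3 members passed, all with the larger lesion difference in DKK1 mice, where 1.46% of all genes passed in that direction. They were Il2rg (1.21 ± 0.21, adjusted p = 0.0257), Il7r (1.65 ± 0.29, adjusted p = 0.0286) and Il6st (0.50 ± 0.09, adjusted p = 0.0337). Without WT ipsilateral 1 and without the block 5 members passed (Il10ra, Il6st, Il1rl2, Il2rg and Il18bp), where 1.94% of all genes passed in that direction, and without both WT libraries numbered 1 there were 3 (Il10ra, Il6st and Il2rg), against 1.33% of all genes.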

How the data were processed

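Libraries were made with a NEBNext Ultra II directional kit from RNA isolated with a miRNeasy micro kit, per the labels' protocols. STAR 2.7.0f, HOMER 4.11, DESeq2 and the build mm10 are named in the submitters' processing notes. Roles, settings and strand use: not given in the sources used here. Raw counts per RefSeq transcript, 1 for each symbol, were deposited by the authors, as was a TPM table of the same libraries, used here only for an alternative test on log2(TPM + 0.1).

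With edgeR 4.0.16 in R 4.3.3, 17612 genes passed its expression filter (minimum count 10, by group), libraries were scaled by TMM (factors 0.963 to 1.04), and 1 robust quasi-likelihood model of 4 groups was fitted to all 12 libraries. Tests were two-sided, with Benjamini-Hochberg adjustment over all genes. The standard error given after ± on a log2 fold change is the size of that change divided by the square root of the test's F statistic. CPM are TMM-scaled. The scripts were tested on simulated counts. Exact intervals are Clopper-Pearson, conditional on the sum. DESeq2 1.42.0 and limma 3.58.1 (voom) were alternatives, with other scalings, no low-count filter, only the groups compared, replicate blocks, and each library left out.

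The labels do not say whether same-numbered libraries come from 1 animal. Deviations from the group means of the 2 sides correlated for every same-numbered pair (0.276, 0.125 and 0.105 in DKK1 and 0.487, 0.31 and 0.297 in WT mice), so the numbers were taken as pairs, although DKK1 ipsilateral 3 correlated more with contralateral 2 (0.172). The pairing comes from these correlations and not from the design.

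The members, the gene lists and the genes given in full were chosen with earlier results of these data known. Given in full were, in each comparison, members past the threshold up to the 10 largest changes each way, a set list of ligands and chains, and up to 4 genes of smallest p per pathway list. Il11ra2 has near-identical copies, and Il4i1 and Il4i1b share a locus, so their counts are uncertain. A further marker gene is not reported here. Of the 67 members 14 overlap another gene in the table.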

Additional observations from a re-analysis of the deposited data

Results flagged for a closer look

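With the genotype-by-number block, edgeR's interaction passed for 3 members, each with the larger lesion difference in DKK1 mice. They were Il2rg (adjusted p = 0.0257), Il7r (adjusted p = 0.0286) and Il6st (adjusted p = 0.0337), where 1.46% of all genes passed in that direction. The block rests on a pairing inferred from these same libraries, which the labels do not give. Without the block the same differences were 1.21 for Il2rg, 1.65 for Il7r and 0.49 for Il6st, with adjusted p-values of 0.483, 0.581 and 0.435. In each of the 3 genes the WT ipsilateral library numbered 1 was the highest of its group. Without that library and without the block, Il2rg (1.62 ± 0.33, adjusted p = 0.0365) and Il6st (0.63 ± 0.09, adjusted p = 0.0164) passed, and Il7r did not (2.32 ± 0.67, adjusted p = 0.0999). In that fit 1.94% of all genes passed in the same direction.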

How the results depend on the processing

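In DKK1 mice the members called higher with the lesion numbered 41, with 38 to 42 when each library was left out, and those called lower 4, with 3 to 4. In WT mice they numbered 35 (27 to 37) and 6 (3 to 6), and fitting only the groups compared gave 3 lower, with 1982 of 17153 genes lower. Between genotypes on the lesioned side 1 member was higher (0 to 17) and 1 lower (0 to 2). DESeq2 gave 3 higher, with 737 of 17612 genes higher. Fitting only the groups compared gave 0 lower, with 45 of 17369 genes lower. Leaving out WT replicate 1 of both sides gave 22 higher and 2 lower, with 12.8% of all genes higher and 5.54% lower. For the interaction, 0 members were higher (0 to 5), with 3 without WT replicate 1 of both sides, where 1.33% of all genes were higher. With the replicate block (genotype-by-number) 3 members passed the interaction, 44 rose and 5 fell in DKK1 mice, and 39 rose and 6 fell in WT mice. Of 17612 genes, 5363 rose and 4540 fell in DKK1 mice with this block, and 4442 rose and 3540 fell in WT mice. Beyond the calls given in the report, the block made Il12rb1 (adjusted p = 0.00825 in WT and 0.0427 in DKK1 mice) and Il17rd (0.0209 in DKK1 mice) pass; it changed no other call. With the number as a block, or the pair as a random effect, the genotype counts stayed at 1 and 1. No called difference changed its sign under any setting run. Among differences that did not pass, the sign changed in at least 1 setting for 2 members in the lesion comparison of each genotype, 10 between genotypes on the lesioned side (without WT ipsilateral 1, Il1b, Il33 and Il20ra among them), 22 on the intact side and 16 in the interaction, and none of these passed after the change. The cause of these shifts was not tested. Groups of 3 libraries and counts under about 100 limit the precision for Il9r, Il5ra, Il12b and Il17c, and leaving out a library leaves 2 in its group.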
